A study of Homo sapiens with 12 samples.

Results

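The 10 genes followed here act in WNT signalling. They were WNT10A (a ligand), the Frizzled receptors FZD1, FZD3, FZD4, FZD6 and FZD7, the co-receptor LRP5, beta-catenin (CTNNB1), and the transcription factors LEF1 and TCF7L2. They were chosen by name, with earlier results of these data known, and all of their probes are given whatever the values. They are 10 of 18665 genes named on the array, had 20 of its 48803 probes, and 14 of these, from 9 of the 10 genes, were among the 15596 probes tested. A probe was tested if some line had it detected on each of its 3 arrays, detection meaning a p under 0.05 in the array software's comparison with negative control beads. TCF7L2 alone had no such probe. The rest of the pathway was read from a list of 113 genes grouped by role, of which 109 had a probe and 57 were tested.

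The study compared lines derived from KMS11, a human multiple myeloma line with a t(4;14) translocation that brings the histone methyltransferase gene MMSET (NSD2) under the control of the immunoglobulin heavy chain locus. WT is the parental line, which keeps both MMSET alleles. NTKO had lost the wild-type allele and kept the overexpressed, rearranged one, and is called MMSET-high together with WT. TKO1 and TKO2 are clones in which the overexpressed allele had been inactivated, leaving the wild-type copy at its physiological level, and they are called TKO together. All lines were untreated, shared the KMS11 background and were grown in the same medium, with 3 arrays each and 12 in all. Each knockout line stems from its own selected cells, and the labels do not say whether the 3 arrays of a line came from separate cultures, so the p-values measure the spread between arrays, which may be technical.

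WNT proteins are secreted lipid-modified ligands that bind Frizzled receptors at the cell surface. With the co-receptors LRP5 or LRP6 they shut down the complex that marks beta-catenin for destruction, and beta-catenin then enters the nucleus and binds LEF1 or a TCF factor at target genes, whereas other WNT proteins act through Frizzled with ROR or RYK co-receptors and need no beta-catenin. In myeloma, which arises from plasma cells, the pathway is known for its part in growth within the bone marrow and in bone disease.

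The promoters of WNT10A, FZD4 and LEF1 are shown because WNT10A and FZD4 were higher in both MMSET-high lines while LEF1 was lower in WT than in TKO1. Each line gives the 250 bases before the RefSeq start site on the gene's own strand, from 5′ to 3′ (GRCh38.p14), with CG dinucleotides in capitals. The windows are chr2:218880602-218880851 on the plus strand for WNT10A, chr11:86955396-86955645 on the minus strand for FZD4, and chr4:108166302-108166551 on the minus strand for LEF1.
WNT10A: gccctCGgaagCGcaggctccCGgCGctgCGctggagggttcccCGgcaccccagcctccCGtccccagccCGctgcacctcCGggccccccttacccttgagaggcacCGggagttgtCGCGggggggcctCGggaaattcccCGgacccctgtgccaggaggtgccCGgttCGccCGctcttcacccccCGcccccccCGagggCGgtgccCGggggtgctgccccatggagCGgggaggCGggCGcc
FZD4: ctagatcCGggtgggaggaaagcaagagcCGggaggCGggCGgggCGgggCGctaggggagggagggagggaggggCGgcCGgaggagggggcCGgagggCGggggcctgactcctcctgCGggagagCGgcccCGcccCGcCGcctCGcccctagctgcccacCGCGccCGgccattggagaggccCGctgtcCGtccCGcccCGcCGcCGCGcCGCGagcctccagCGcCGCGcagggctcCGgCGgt
LEF1: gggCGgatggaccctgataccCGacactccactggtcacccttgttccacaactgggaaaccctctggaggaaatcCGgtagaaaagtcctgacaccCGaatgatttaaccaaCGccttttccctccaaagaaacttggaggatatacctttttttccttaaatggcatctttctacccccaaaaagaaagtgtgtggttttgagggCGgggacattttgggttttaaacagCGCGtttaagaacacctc
The FZD4 window held 33 CG dinucleotides and 80.8% G and C, against 24 and 77.6% for WNT10A, and 8 and 47.6% for LEF1. The median of 35114 promoter windows of this length was 11 CG dinucleotides, and 91.9% of them had fewer than FZD4, 76.3% fewer than WNT10A and 43.7% fewer than LEF1. The core bound by TCF and LEF factors was searched on both strands as CTTTGAA or CTTTGAT or CTTTGTA or CTTTGTT. None of these 4 words was in the 3 windows printed, nor in those of FZD1, LRP5 or CTNNB1. Of the 3 start sites listed for TCF7L2, 1 had CTTTGTT 133 bases before it, and 12% of all promoter windows held one of the words. RefSeq windows were matched for 7 of the 10 genes. The start sites used for WNT10A, LEF1 and LRP5 lie inside the span of the gene, so other start sites of these genes were not examined.

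Quality and labels were read from all probes. Each array detected between 14166 and 16684 probes. NTKO replicate 2 stood apart. Over the tested probes it correlated at 0.945 to 0.948 with the other NTKO arrays, which correlated with each other at 0.993, and at 0.974 to 0.978 with the WT arrays. The main counts that rest on NTKO, and the differences from TKO of the WNT genes named, are therefore given with and without this array. Counts split by how a probe came to be tested, counts at an unadjusted p and differences from single clones are given with all arrays alone. The tested NSD2 probe lay between 6.09 and 6.43 on the NTKO arrays, between 6.18 and 6.56 in WT and between 5.44 and 6.07 in TKO on the log2 scale. It was the tested one of 4 NSD2 probes, and whether it lies in the inactivated part of the gene was not examined. Of 8 plasma cell markers 7 were tested and 6 were detected on all arrays, whereas SLAMF7 was not tested and CD38 was detected on 6 arrays, with a mean log2 intensity of 5.68 in WT, 7.52 in NTKO and 4.57 in TKO. No marker of T and NK cells, of myeloid cells or of stromal cells was tested out of 4 each. The 2 erythroid markers with a probe (of 3) had a summed level of 104.9 to 109.2 intensity units in WT, 67.0 to 80.3 in NTKO and 168 to 289 in TKO, carried by HBB, with ALAS2 not detected beyond 1 array. Of 4 epithelial markers KRT18 was tested, with a summed level of the list of 97.4 to 106 in WT, 95.3 to 102 in NTKO and 96.2 to 101 in TKO. Whether these cells' RNA took part in any result below was not tested.

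WNT10A and FZD4, with 1 probe each, were higher in NTKO than in TKO. FZD1, FZD7 and LRP5 were higher by 1 of 2 tested probes each, with the brighter FZD7 probe pointing the other way without passing, and LEF1 was lower by 1 of 2. Of the 14 member probes 5 were higher and 1 was lower in NTKO, beside 27.5% of all tested probes called in either direction (13.7% higher and 13.8% lower). The median difference of the 14 probes was 0.34 on the log2 scale, and that of all tested probes was -0.06. In WT 6 member probes were higher and 2 were lower than in TKO, beside 15.8% of all probes (9.93% higher and 5.87% lower). The median difference was 0.44, and -0.04 over all probes. The 2 comparisons share the 6 TKO arrays, so they are not independent of each other. Without NTKO replicate 2 the counts were 6 higher and 2 lower for NTKO, beside 45.4% of all probes, and 7 higher and 2 lower for WT, beside 25.1%. Without WT replicate 2 the WT comparison called 5 member probes in all, beside 10.2% of all probes. FZD4 and 1 probe each of FZD1 (ILMN_1696546), FZD7 (ILMN_1804351) and LRP5 (ILMN_2075892) were tested only because a MMSET-high line had them detected on all its arrays, which favours a positive difference. Over the other 10 probes 3 were higher and 1 was lower in NTKO, and 4 were higher and 2 were lower in WT. The median differences above include the probes so favoured and were not taken without them, so they show no shift of the set. The call for a probe used the adjusted p of limma, with a threshold of 0.05 over all 15596 probes.

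**Figure D1:**
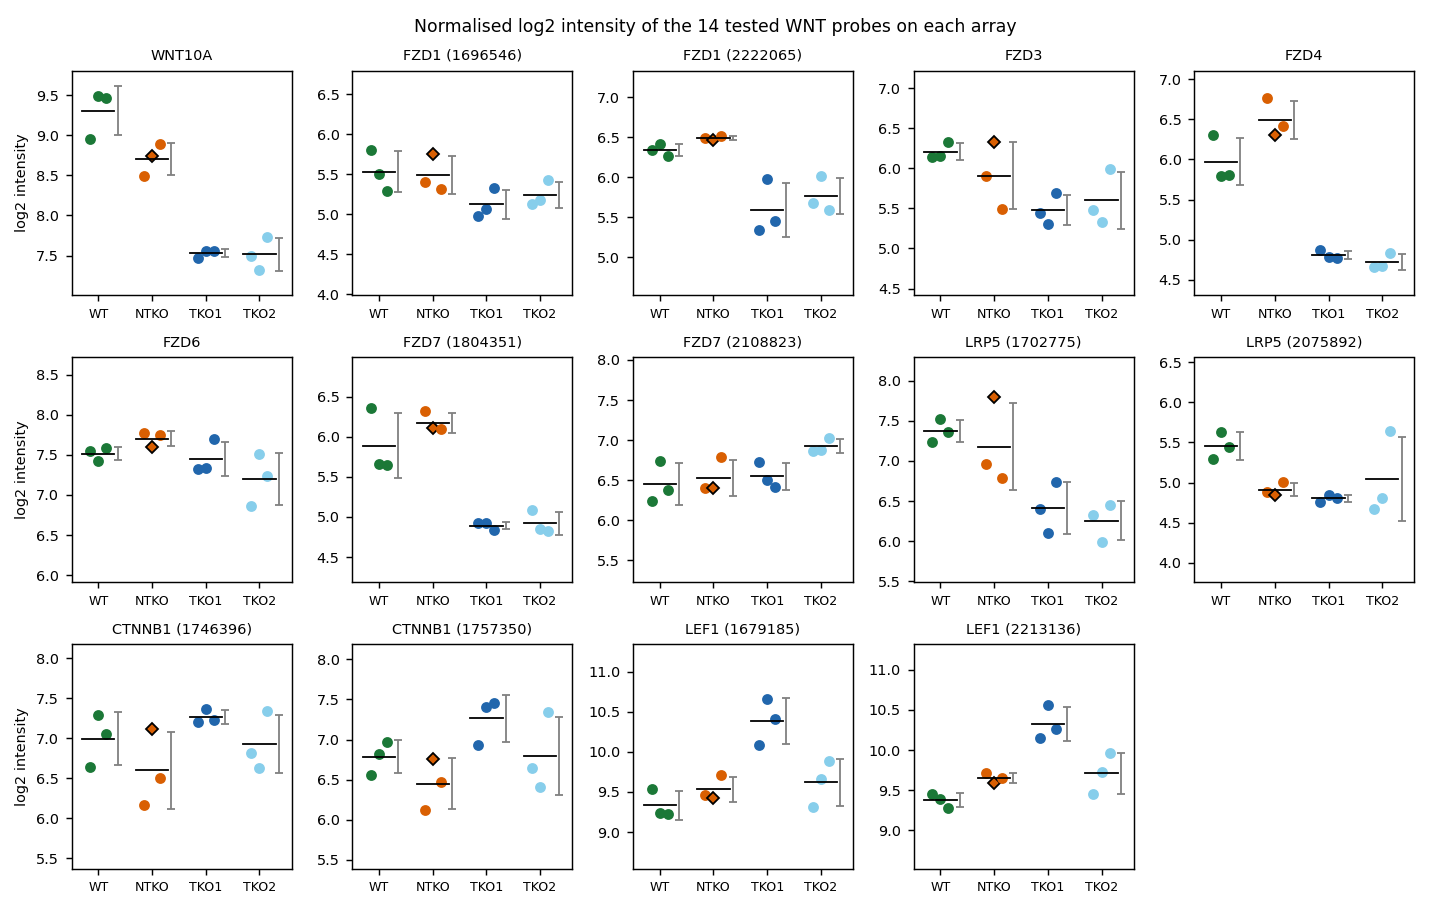
Log2 intensity (vertical axis, the same span in every panel) of the 14 tested member probes on each array, by line. Points are arrays, black lines are means, grey bars are 1 SD (n = 3), and the diamond is NTKO replicate 2. FZD4, WNT10A, FZD7 probe ILMN_1804351, FZD1 probe ILMN_2222065 and LRP5 probe ILMN_1702775 have all 6 MMSET-high arrays above all 6 TKO arrays. The share of such probes over the whole array was not counted.

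WNT10A, a ligand best known for signalling through beta-catenin in skin, hair and teeth, was the one member ligand. Its log2 intensity was 8.95, 9.50 and 9.47 on the WT arrays, 8.50, 8.74 and 8.89 in NTKO, 7.47, 7.56 and 7.55 in TKO1 and 7.50, 7.32 and 7.73 in TKO2. All 6 MMSET-high arrays lay above all 6 TKO arrays, and every WT array lay above every NTKO array. Its probe was detected on all 12 arrays. Relative to TKO, NTKO was 2.28-fold higher (a log2 difference of 1.19 ± 0.16, SE, adjusted p = 3.97e-05, or 1.17 without NTKO replicate 2, adjusted p = 2.36e-05) and 3.44-fold higher in WT (1.78 ± 0.16, adjusted p = 6.29e-07). The order was WT, NTKO, TKO. NTKO minus WT was -0.60 and did not pass (adjusted p = 0.0585), but without NTKO replicate 2 it was -0.61 and passed (adjusted p = 0.019). TKO1 and TKO2 differed by 0.01 (adjusted p = 0.994).

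FZD4, a Frizzled receptor that also binds the ligand norrin and is known for its part in retinal vessels, was the member with the largest difference between NTKO and TKO. It read 6.31, 5.80 and 5.80 in WT, 6.76, 6.30 and 6.42 in NTKO, 4.87, 4.79 and 4.77 in TKO1 and 4.66, 4.67 and 4.83 in TKO2. The probe was detected on all 6 MMSET-high arrays and on none of the 6 TKO arrays, and the groups did not overlap. Since TKO gave only a bound, the difference is written as at least 2.64-fold for NTKO (fitted log2 difference 1.73 ± 0.16, adjusted p = 8.06e-07, or 1.83 without NTKO replicate 2, adjusted p = 1.47e-07) and at least 1.83-fold for WT (1.21 ± 0.16, adjusted p = 5.03e-05). The bound sets the mean of the MMSET-high arrays against the lowest detected intensity of each TKO array. NTKO was 0.52 above WT, which did not pass (adjusted p = 0.0941), and 0.62 above without NTKO replicate 2, which did (adjusted p = 0.0178).

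FZD7, a receptor for several WNT ligands that is common in stem cells, had 2 probes that disagreed. Probe ILMN_1804351 read 6.36, 5.67 and 5.64 in WT, 6.32, 6.11 and 6.09 in NTKO, 4.92, 4.92 and 4.84 in TKO1 and 5.08, 4.85 and 4.82 in TKO2. It was detected on all 6 MMSET-high arrays and on 1 of 6 TKO arrays, with no overlap. Since most TKO arrays gave no level above background, no fold is given. The fitted log2 difference was 1.27 ± 0.17 for NTKO (adjusted p = 3.94e-05, or 1.301 without NTKO replicate 2, adjusted p = 2.15e-05) and 0.98 ± 0.17 for WT (adjusted p = 0.000601). Probe ILMN_2108823, in contrast, was detected on all 12 arrays and read 6.24, 6.74 and 6.38 in WT, 6.40, 6.40 and 6.79 in NTKO, 6.73, 6.50 and 6.41 in TKO1 and 6.87, 6.87 and 7.02 in TKO2. Its groups overlapped, with the TKO2 arrays at the top, and its differences were -0.21 for NTKO (adjusted p = 0.379, or -0.14 without NTKO replicate 2, adjusted p = 0.534) and -0.28 for WT (adjusted p = 0.287). Which transcripts of FZD7 each probe reads was not examined, so the direction for the gene is uncertain.

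FZD1, which couples ligands to the beta-catenin arm, also had 2 probes. Probe ILMN_2222065 read 6.34, 6.41 and 6.26 in WT, 6.49, 6.47 and 6.52 in NTKO, 5.34, 5.98 and 5.46 in TKO1 and 5.68, 6.02 and 5.59 in TKO2. The MMSET-high arrays lay above all TKO arrays, where the replicate 2 arrays of both clones were the highest. It was 1.76-fold higher in NTKO (0.82 ± 0.17, adjusted p = 0.0024, or 0.83 without NTKO replicate 2, adjusted p = 0.00176) and 1.58-fold higher in WT (0.66 ± 0.17, adjusted p = 0.0154). The WT call was lost when WT replicate 1 (adjusted p = 0.0606) or WT replicate 2 (adjusted p = 0.0787) was left out. Probe ILMN_1696546 was dimmer, detected on 10 of 12 arrays and between 4.98 and 5.80, and its differences pointed the same way without passing, 0.31 for NTKO (adjusted p = 0.166, or 0.18 without NTKO replicate 2, adjusted p = 0.41) and 0.35 for WT (adjusted p = 0.165).

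FZD3 and FZD6, receptors known for planar cell polarity and axon guidance, varied less. FZD3 read 6.14, 6.15 and 6.33 in WT, 5.90, 6.33 and 5.50 in NTKO, 5.44, 5.31 and 5.69 in TKO1 and 5.48, 5.33 and 5.996 in TKO2. The WT arrays lay above every TKO array, while NTKO spread across the range with replicate 2 at the WT level. It was 1.59-fold higher in WT than in TKO (0.67 ± 0.20, adjusted p = 0.0324), a call lost in 8 of 22 alternatives. It was lost without any single WT array (adjusted p between 0.0886 and 0.14) and with no filter on dim probes (adjusted p = 0.0679). Leaving out replicate 1 or 2 of either TKO clone also lost it (adjusted p between 0.0543 and 0.0695). The difference for NTKO was 0.37 ± 0.20 (adjusted p = 0.187), and 0.16 without NTKO replicate 2 (adjusted p = 0.53). FZD6 read 7.55, 7.42 and 7.58 in WT, 7.77, 7.60 and 7.74 in NTKO, 7.33, 7.33 and 7.70 in TKO1 and 6.86, 7.51 and 7.24 in TKO2, with overlap between both MMSET-high lines and TKO. Its differences were 0.38 ± 0.16 for NTKO (adjusted p = 0.0938, or 0.43 without NTKO replicate 2, adjusted p = 0.0487) and 0.19 ± 0.16 for WT (adjusted p = 0.481).

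**Figure D2:**
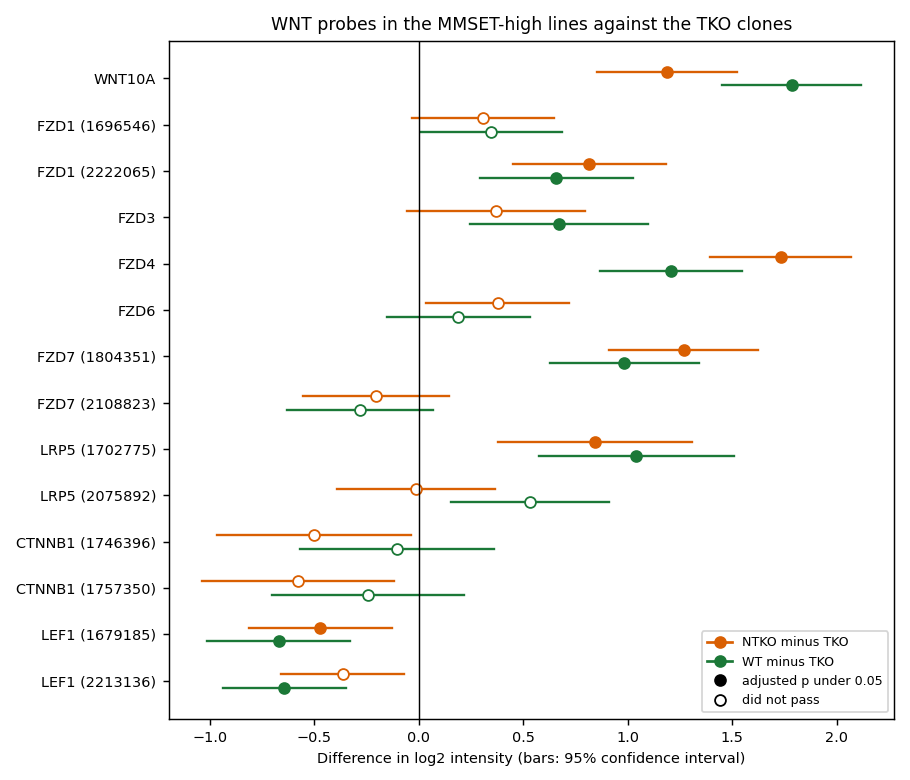
Differences in log2 intensity (horizontal axis) of NTKO (orange) and WT (green) from the TKO clones for the 14 tested member probes, with 95% confidence intervals. Filled points have an adjusted p under 0.05. The intervals of WNT10A, FZD4, FZD1 (ILMN_2222065), FZD7 (ILMN_1804351) and LRP5 (ILMN_1702775) lie above 0 in both comparisons, and those of both LEF1 probes lie below 0.

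LRP5, the co-receptor that passes the WNT signal to the beta-catenin arm and is known for its role in bone mass, was higher in both MMSET-high lines by 1 of its 2 probes. Probe ILMN_1702775 read 7.24, 7.52 and 7.36 in WT, 6.96, 7.79 and 6.78 in NTKO, 6.40, 6.10 and 6.74 in TKO1 and 6.33, 5.99 and 6.45 in TKO2. No MMSET-high array lay below a TKO array, and NTKO replicate 2 was the highest of all 12. It was 2.06-fold higher in WT (1.04 ± 0.22, adjusted p = 0.00339) and 1.80-fold higher in NTKO (0.84 ± 0.22, adjusted p = 0.00945). Without NTKO replicate 2 the NTKO difference fell to 0.54 and still passed (adjusted p = 0.0265). Probe ILMN_2075892 was detected on all 3 WT arrays but on 1 each in NTKO and TKO2 and on none in TKO1. It read 5.29, 5.64 and 5.45 in WT, 4.88, 4.84 and 5.001 in NTKO, 4.76, 4.85 and 4.81 in TKO1 and 4.67, 4.81 and 5.65 in TKO2. A single TKO2 array reached the WT level. The difference for NTKO was -0.01 (adjusted p = 0.966, or 0.02 without NTKO replicate 2, adjusted p = 0.946), and that for WT was 0.53 and did not pass (adjusted p = 0.0534). The WT difference passed in 7 of 20 alternatives, among them plain log2 values (0.80, adjusted p = 0.0415), the authors' processed values (0.80, adjusted p = 0.0413), cyclic loess (0.55, adjusted p = 0.0385) and the fit without NTKO replicate 2 (adjusted p = 0.0311).

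CTNNB1 encodes beta-catenin, whose activity is set largely by protein stability, which the arrays do not measure. It had 7 probes, of which 2 were tested, and the other 5 gave 1 detection among them, on a TKO2 array. Probe ILMN_1757350 read 6.56, 6.82 and 6.97 in WT, 6.13, 6.75 and 6.48 in NTKO, 6.93, 7.41 and 7.45 in TKO1 and 6.65, 6.41 and 7.34 in TKO2. The TKO1 mean was the highest, and the TKO2 arrays overlapped both MMSET-high lines. Its difference for NTKO was -0.58 ± 0.22 and did not pass (adjusted p = 0.0581), but without NTKO replicate 2 it was -0.73 and passed (adjusted p = 0.0131). Probe ILMN_1746396 read 6.64, 7.29 and 7.05 in WT, 6.17, 7.11 and 6.51 in NTKO, 7.20, 7.37 and 7.23 in TKO1 and 6.82, 6.63 and 7.34 in TKO2, with a difference of -0.50 ± 0.22 for NTKO (adjusted p = 0.101, or 0.00548 at -0.76 without NTKO replicate 2). In WT minus TKO both differences were small, -0.10 for ILMN_1746396 (adjusted p = 0.798) and -0.25 for ILMN_1757350 (adjusted p = 0.5). In the model of line means over all 12 arrays neither CTNNB1 probe passed. ILMN_1757350 passed with the replicate number as a block (-0.58, adjusted p = 0.0294), and without TKO1 replicate 1 (adjusted p = 0.0391) or TKO2 replicate 2 (adjusted p = 0.0339). By this probe NTKO was lower than TKO1 (-0.81, adjusted p = 0.0288), and its difference from TKO2 was -0.35 (adjusted p = 0.363).

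LEF1, the factor that takes beta-catenin to target genes, was lower in WT than in the mean of the TKO clones and than in TKO1, while its difference from TKO2 did not pass. Probe ILMN_2213136 read 9.45, 9.39 and 9.28 in WT, 9.71, 9.59 and 9.65 in NTKO, 10.15, 10.56 and 10.26 in TKO1 and 9.45, 9.72 and 9.96 in TKO2. The TKO1 arrays were above all others, and the TKO2 arrays lay on both sides of NTKO. Probe ILMN_1679185 showed the same order, at 9.54, 9.23 and 9.22 in WT, 9.46, 9.42 and 9.71 in NTKO, 10.09, 10.66 and 10.41 in TKO1 and 9.31, 9.66 and 9.89 in TKO2. WT was 1.56-fold lower than TKO by the first probe (-0.64 ± 0.14, adjusted p = 0.00397) and 1.59-fold lower by the second (-0.67 ± 0.16, adjusted p = 0.00881). The second lost this call without WT replicate 2 (adjusted p = 0.0581) or WT replicate 3 (adjusted p = 0.0602). Against the single clones, WT minus TKO1 was -0.95 and -1.06 by the 2 probes (adjusted p = 0.000649 and 0.000988), and WT minus TKO2 was -0.34 and -0.29 (adjusted p = 0.208 and 0.39).

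For NTKO the LEF1 differences were -0.36 ± 0.14 (adjusted p = 0.0614, or -0.34 without NTKO replicate 2, adjusted p = 0.0689) and -0.47 ± 0.16 (1.39-fold lower, adjusted p = 0.0397), and the second did not pass without NTKO replicate 2 (-0.42, adjusted p = 0.0548). Set against each clone, NTKO minus TKO1 was -0.67 and -0.86 by the 2 probes (adjusted p = 0.00692 and 0.00376), and NTKO minus TKO2 was -0.06 and -0.09 (adjusted p = 0.833 and 0.783). TKO1 exceeded TKO2 by 0.61 (adjusted p = 0.119) and 0.77 (adjusted p = 0.0823), and by these amounts with adjusted p = 0.0334 and 0.0205 once NTKO replicate 2 was left out. TCF7L2, a partner of beta-catenin in gut and other tissues, was detected on 1 TKO1 and 1 TKO2 array and read between 4.69 and 5.26.

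**Figure D3:**
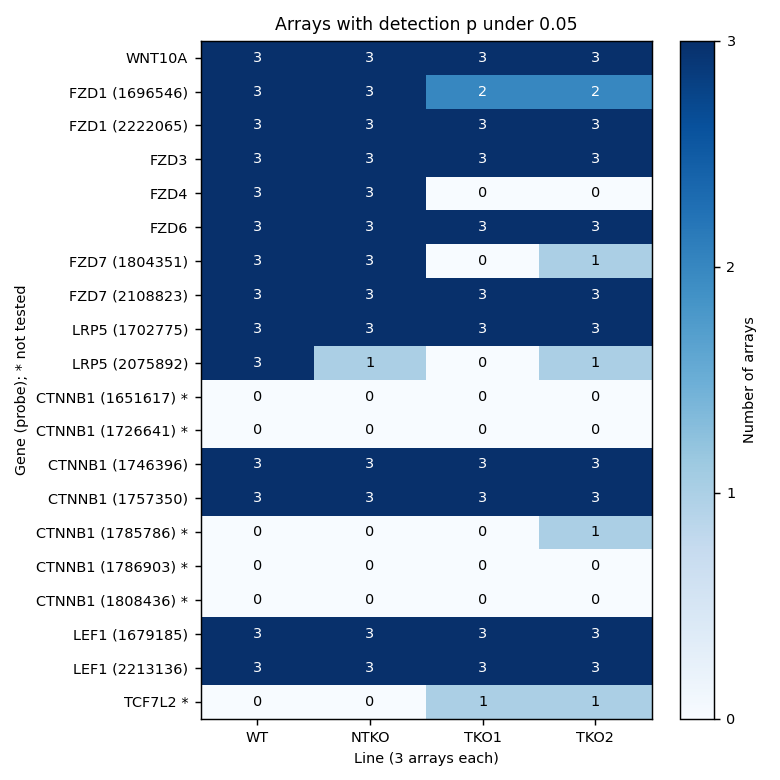
Number of arrays (0 to 3, colour and figure in each cell) with a detection p under 0.05 for the 20 member probes (rows, stars for those not tested) in each line (columns). FZD4 was detected on all arrays of WT and NTKO and on none of TKO1 or TKO2, and 5 of 7 CTNNB1 probes and the TCF7L2 probe were near or at 0 in all lines.

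The strictest comparison set each MMSET-high line against each TKO clone. WNT10A (adjusted p = 0.000511), FZD4 (adjusted p = 0.000689) and FZD7 by probe ILMN_1804351 (adjusted p = 0.00528) passed in all 4 pairs, always higher in the MMSET-high line, and no member probe passed in the other direction. That is 3 of 14 probes beside 4.41% of all tested probes (3.37% higher and 1.04% lower). FZD4 and this FZD7 probe were tested through the MMSET-high lines alone, which favours a positive difference. Of the 10 probes tested through lines of both kinds, only WNT10A passed. The same 3 passed without NTKO replicate 2 (adjusted p = 0.000374, 0.000128 and 0.00193), beside 6.31% of all probes. LRP5 (adjusted p = 0.133, or 0.348 without that array) and FZD1 (adjusted p = 0.169, or 0.0968) had 1 sign in all 4 pairs by their brighter probes and did not pass. Between the MMSET-high lines none of the 14 passed in limma, beside 7.2% of all probes, and 3 passed without NTKO replicate 2, beside 32.5%: FZD4 higher, and WNT10A and CTNNB1 probe ILMN_1746396 lower in NTKO. Between the TKO clones none passed, beside 0.718% of all probes, or the 2 LEF1 probes, beside 2.26%, without that array. At an unadjusted p under 0.05, 3 member probes differed between NTKO and WT (beside 24.2% of all probes) and 2 between the TKO clones (beside 7.64%).

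Over the 12 arrays the 5 genes whose pattern lay closest to that of FZD4 were ACVR1, NAP1L3, FGD1, PPFIBP1 and CTSZ. Likeness was the root mean square distance of log2 values after each gene was centred on its own mean, and it ran from 0.152 for ACVR1 to 0.17 for CTSZ. ACVR1, a type I receptor for activins and bone morphogenetic proteins, was 1.53 higher in NTKO than in TKO and 1.27 higher in WT. These values describe genes picked for their likeness and carry no test.

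The wider pathway moved in both directions. Each gene is represented by its tested probe with the highest mean, which for FZD7 is the probe that did not pass. WLS, ROR1, RYK, KREMEN2, CSNK1D, CSNK1E, MYC and BIRC5 also had more than 1 tested probe. Their other probes are not reported, so whether these agree is not shown. Of the 57 tested genes 15 rose and 8 fell in NTKO relative to TKO, and 34 did not pass, beside 29% of all tested genes called in either direction (15.2% higher and 13.8% lower). The median difference over the 57 genes was 0.00, against -0.04 over all 9857 genes. In WT 17 rose and 6 fell, beside 17.1% of all genes (10.8% higher and 6.3% lower), with a median of 0.15. Without NTKO replicate 2 the counts were 17 and 13 for NTKO, beside 47.9% of all genes, and 18 and 9 for WT, beside 26.9%. In all 4 pairs 6 of the 57 passed, all higher in the MMSET-high lines, beside 4.87% of all genes. Of the 6, WNT10A and JUN were tested through lines of both kinds, and WLS, FZD4, FZD8 and PRICKLE1 through the MMSET-high lines alone. Without NTKO replicate 2, 7 passed. The share over all genes was not counted for this setting, and that over all probes was 6.31%, against 4.41% with all arrays. Between NTKO and WT 9 passed (beside 7.79%), or 1 to 22 with single arrays left out, with 22 without NTKO replicate 2. Between the clones 2 passed (beside 0.781%), or 5 without that array. Leaving out the 10 members, 11 of 48 tested genes rose and 8 fell in NTKO (12 and 12 without NTKO replicate 2). In WT 12 of them rose and 5 fell (13 and 8 without that array). Of the 57 genes 10 were tested through the MMSET-high lines alone, which favours a positive difference, and 1 (CELSR3) through TKO alone. The 10 were WNT5A, WLS, FZD2, FZD4, FZD8, ROR1, BTRC, CTNNBIP1, PRICKLE1 and TNFRSF19. Over the other 46 genes 9 rose and 7 fell in NTKO and 9 rose and 6 fell in WT. The medians over the 57 genes include those 10 genes and were not taken without them.

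**Figure D4:**
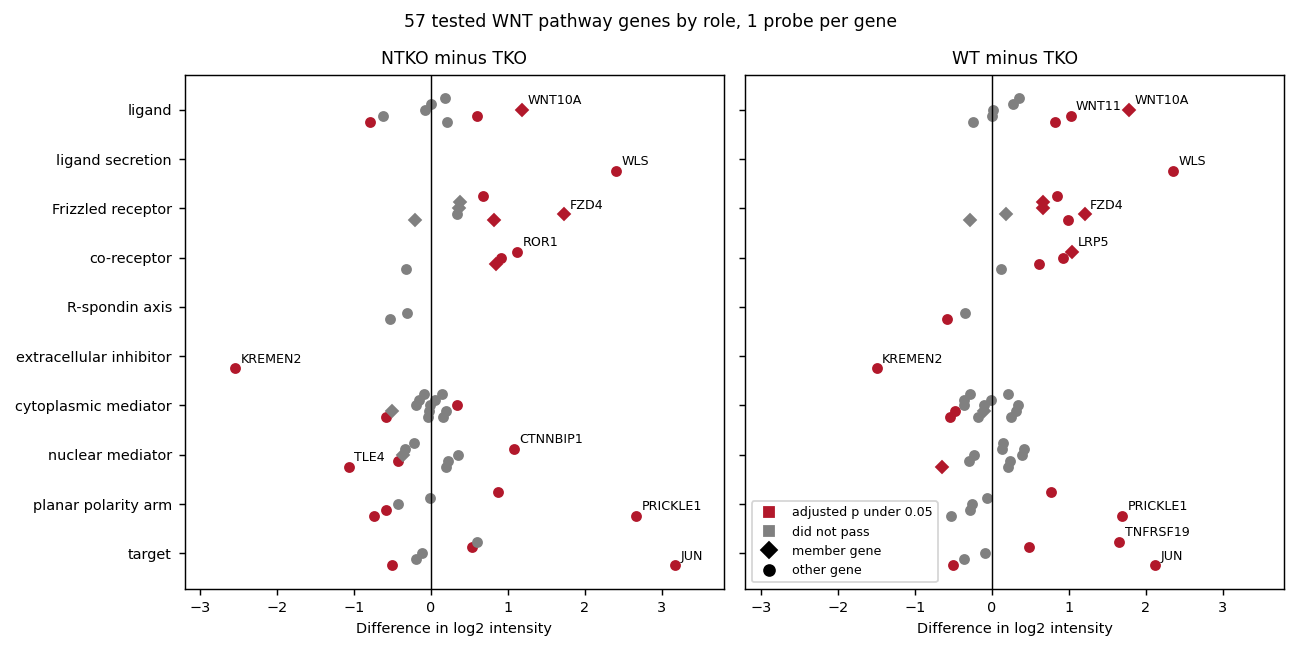
Differences in log2 intensity (horizontal axes) of NTKO and WT from TKO for 57 WNT pathway genes, 1 probe each, by role (rows; height within a row has no meaning). Red points have an adjusted p under 0.05, diamonds are the members, and genes past 1 on the log2 scale are named. With all 12 arrays, Frizzled receptors and co-receptors that passed lie to the right of 0, and the cytoplasmic mediators lie around 0.

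With all 12 arrays, each Frizzled receptor or co-receptor gene that passed in a comparison with TKO was higher in the MMSET-high line. FZD2, FZD4, FZD8 and ROR1 were detected on no TKO array and entered the test through the MMSET-high lines, so a negative call was hardly open to them. FZD1, FZD3, LRP5 and ROR2 were tested through lines of both kinds. Without NTKO replicate 2 the co-receptor RYK, a receptor with an inactive kinase domain, passed in the other direction (-0.54, adjusted p = 0.00449, against -0.33 and 0.145 with all arrays). Of 7 tested Frizzled genes 3 rose in NTKO (FZD1, FZD4 and FZD8), or 5 without NTKO replicate 2. In WT 5 rose (FZD1, FZD2, FZD3, FZD4 and FZD8). Counts by role, here and below, stand beside 29% of all genes called in NTKO, or 47.9% without NTKO replicate 2. For WT these shares were 17.1% and 26.9%. FZD8 was detected on all 6 MMSET-high arrays and on none in TKO, at 5.66, 5.60 and 5.53 in WT and 5.51, 5.24 and 5.54 in NTKO, against 4.60 to 4.84 in TKO. It was at least 1.26-fold higher in NTKO (adjusted p = 0.000634, or 0.000123 without NTKO replicate 2) and at least 1.41-fold higher in WT (adjusted p = 0.000119), and it passed in all 4 pairs (adjusted p = 0.0113, or 0.00296 without that array). FZD2, named here after its values were seen, was at least 1.48-fold higher in WT than in TKO (adjusted p = 6.94e-05), while its NTKO difference was 0.34 (adjusted p = 0.0708), or 0.49 without NTKO replicate 2 (adjusted p = 0.0071).

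Of 4 tested co-receptors 3 rose in both MMSET-high lines, namely LRP5, ROR1 and ROR2, the latter 2 being receptor tyrosine kinases for WNT ligands such as WNT5A. ROR1 was not detected in TKO and was at least 1.74-fold higher in NTKO (fitted log2 difference 1.12, adjusted p = 0.0018, or 1.48 without NTKO replicate 2, adjusted p = 4.99e-06) and at least 1.52-fold higher in WT (adjusted p = 0.0106). It missed the threshold over all 4 pairs (adjusted p = 0.0652) and passed without that array (adjusted p = 0.00305). ROR2 was 0.91 higher in NTKO than in TKO (adjusted p = 0.000283, or 0.95 without NTKO replicate 2, adjusted p = 0.000129) and split the clones. It read 5.94, 6.08 and 6.21 in TKO1, like the WT arrays at 6.18, 5.90 and 5.98, but was not detected in TKO2 at 4.65, 4.84 and 4.75. TKO1 exceeded TKO2 at least 1.92-fold (fitted log2 difference 1.33 ± 0.17, adjusted p = 0.000752), and the TKO1 arrays overlapped those of WT but lay below those of NTKO. LRP6 had 1 probe, which was not tested.

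Among the ligands 2 of 8 tested rose and 1 fell in NTKO (1 and 2 without NTKO replicate 2), and 3 rose in WT. WNT11 rose in both, but its NTKO call (0.60, adjusted p = 0.0443) was lost without NTKO replicate 2 (0.35, adjusted p = 0.153). Its mean was 5.24 in TKO1 and 6.23 in TKO2 against 6.33 in NTKO and 6.76 in WT, and TKO1 minus TKO2 was -0.996 (adjusted p = 0.0823, or 0.0102 without that array). WNT5A, the classic ligand of the arm that needs no beta-catenin, rose in WT (0.82 ± 0.16, adjusted p = 0.00194), and its NTKO difference was 0.20 (adjusted p = 0.367, or 0.03 without NTKO replicate 2, adjusted p = 0.878). WNT5B fell in NTKO (-0.80 ± 0.20, adjusted p = 0.0073, or -1.12 without NTKO replicate 2, adjusted p = 8.07e-06), and its WT difference was 0.02 (adjusted p = 0.968). NTKO and WT differed for WNT5B (-0.81, adjusted p = 0.0432, or -1.14 without that array, adjusted p = 5.22e-05). WNT10B also passed in NTKO without that array (-1.004, adjusted p = 0.00111, against -0.63 and 0.0836).

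WLS, the carrier that brings WNT ligands to the cell surface, had 5 probes, of which 4 were tested, and the brightest tested one is given. This probe was detected on all 6 MMSET-high arrays and on none in TKO. It was tested through the MMSET-high lines alone, which favours a positive difference. It read 7.11, 7.06 and 6.81 in WT and 7.08, 6.87 and 7.18 in NTKO, against 4.58 to 4.66 in TKO. It was at least 3.85-fold higher in NTKO (2.40 ± 0.15, adjusted p = 7.16e-09, or 2.49 without NTKO replicate 2, adjusted p = 9.06e-10) and at least 3.73-fold higher in WT (2.35 ± 0.15, adjusted p = 1.37e-08), and it passed in all 4 pairs (adjusted p = 1.96e-07, or 2.25e-08 without that array).

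Of the extracellular inhibitors 1 of 14 was tested. KREMEN2, a receptor that lets Dickkopf proteins remove LRP5 and LRP6, was lower in NTKO (-2.54 ± 0.20, adjusted p = 1.23e-07, or -2.66 without NTKO replicate 2, adjusted p = 1.69e-08) and in WT (-1.49 ± 0.20, adjusted p = 5.5e-05). It read 5.82, 6.33 and 6.27 in WT and 5.22, 5.33 and 4.73 in NTKO, against 8.20, 8.75 and 8.36 in TKO1 and 6.61, 6.73 and 7.15 in TKO2. The clones differed here too, by 1.61 (adjusted p = 0.00174), and the 4 pairs did not all pass (adjusted p = 0.138, or 0.0597 without that array). DKK1, the best known Dickkopf inhibitor in myeloma bone disease, had 2 probes, neither tested. Both tested R-spondin ligands, which stabilise Frizzled receptors, had negative differences, and 1 passed with all arrays, RSPO2 in WT (-0.58, adjusted p = 0.0488). RSPO3 passed in NTKO without NTKO replicate 2 (-0.65, adjusted p = 0.0206, against -0.54 and 0.0621).

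Of 13 tested cytoplasmic mediators 1 rose and 1 fell in NTKO (1 and 2 without NTKO replicate 2), beside 29% of all genes called. In WT 2 fell (1 rose and 4 fell without that array), beside 17.1%. CSNK1D, a kinase that acts on Dishevelled, was lower in NTKO (-0.58, adjusted p = 0.00476, or -0.71 without NTKO replicate 2, adjusted p = 0.000235), and its relative CSNK1E was higher (0.34, adjusted p = 0.0441, or 0.36, adjusted p = 0.0242). AXIN2, a scaffold of the destruction complex and a direct target of beta-catenin used as a readout of the pathway, read 7.39, 7.14 and 7.32 in WT, 6.94, 6.98 and 7.04 in NTKO, 7.14, 6.62 and 7.14 in TKO1 and 7.21, 7.14 and 7.21 in TKO2. Its differences were -0.09 for NTKO (adjusted p = 0.697, or 0.686 without NTKO replicate 2) and 0.21 for WT (adjusted p = 0.41), with overlapping groups.

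Of 9 tested nuclear mediators 1 rose and 2 fell in NTKO (2 and 3 without NTKO replicate 2), and 1 fell in WT, which was LEF1. CTNNBIP1, which blocks beta-catenin from binding TCF factors, was higher in NTKO (1.08 ± 0.22, adjusted p = 0.0019, or 1.18 without NTKO replicate 2, adjusted p = 0.000592), with a WT difference of 0.42 (adjusted p = 0.231). TLE4, a co-repressor of TCF and LEF factors, was lower in NTKO (-1.06 ± 0.17, adjusted p = 0.000198, or -1.13 without that array, adjusted p = 6.13e-05), with a WT difference of 0.39 (adjusted p = 0.129). NTKO and WT differed for TLE4 by -1.46 (adjusted p = 0.000307, or -1.52 and 2.04e-05 without that array). No probe was named for TCF7.

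In the planar polarity arm 2 of 6 tested genes rose and 2 fell in NTKO, with the same counts without NTKO replicate 2. In WT 2 rose, and 1 also fell without that array. PRICKLE1, a cytoplasmic protein of that arm, was tested through the MMSET-high lines alone, which favours a positive difference. It read 6.61, 7.16 and 7.12 in WT and 7.55, 8.03 and 8.22 in NTKO, against 4.90 to 5.49 in TKO. It was 6.34-fold higher in NTKO (2.66 ± 0.21, adjusted p = 1.07e-07, or 2.62 without NTKO replicate 2, adjusted p = 6.01e-08) and 3.24-fold higher in WT (1.69 ± 0.21, adjusted p = 2.26e-05), with the probe detected on 4 of 6 TKO arrays, and it passed in all 4 pairs (adjusted p = 0.000252, or 5.37e-05 without that array).

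Of 6 tested genes listed as targets 2 rose and 1 fell in NTKO, and 3 rose and 1 fell in WT, with the same counts without NTKO replicate 2. JUN, a subunit of the AP-1 transcription factor that many other signals also raise, was 9.02-fold higher in NTKO (3.17 ± 0.25, adjusted p = 1.61e-07, or 3.61 without NTKO replicate 2, adjusted p = 4.57e-11) and 4.36-fold higher in WT (2.12 ± 0.25, adjusted p = 1.83e-05). It read 9.13, 9.15 and 9.20 in WT and 10.67, 9.33 and 10.62 in NTKO, with replicate 2 near WT, against 6.19 to 7.73 in TKO. MYC, which drives growth, rose in NTKO (0.54 ± 0.12, adjusted p = 0.0028, or 0.49 without that array, adjusted p = 0.00316) and in WT (0.49 ± 0.12, adjusted p = 0.0083). BIRC5, an inhibitor of cell death that is high in dividing cells, fell in NTKO (-0.51, adjusted p = 0.0134, or -0.59 without that array, adjusted p = 0.00267) and in WT (-0.50, adjusted p = 0.0223). Genes on the list other than the members, the 4 that passed in all 4 pairs (WLS, FZD8, PRICKLE1 and JUN) and AXIN2, DKK1, LRP6 and TCF7 were named after their values were seen.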

How the data were processed

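Gene expression in 4 KMS11 lines was read with Illumina HumanWG-6 v3 BeadChips (3 for each line, grouped by the sample labels). The authors exported the arrays with GenomeStudio (no version is named in the sources read). What was deposited first is the export, with a background-subtracted intensity per probe, linear and partly below 0, and a detection p-value. The authors' own processed intensity values, also deposited and by their percentiles quantile normalised, served as an alternative. Bead numbers behind each value were not used, so the number of arrays limits the precision.

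The export was corrected and quantile normalised with neqc (limma 3.58.1, R 4.3.3, offset 16) giving log2 values. Gene names came from the platform annotation, updated to RefSeq symbols. Of 48803 probes, 27578 had 1 gene, 13 had several and 21212 had none, and none was named from several. Tested were 15596 probes with a detection p under 0.05 on all 3 arrays of a line. All 12 arrays entered 1 model of line means (lmFit, eBayes with trend and robust, statmod 1.5.0), two-sided, with Benjamini-Hochberg adjustment over all 15596 probes and a threshold of 0.05. TKO is the mean of TKO1 and TKO2. For all 4 pairs the largest of the 4 p-values was adjusted, and the 4 differences had to share a sign. Where a group had no array detected, folds are given as "at least", with the lowest detected intensity of each array as the floor. The fit was tested on simulated data.

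Named were all probes of the 10 members, list genes passing in all 4 pairs, AXIN2, DKK1, LRP6 and TCF7, and the 5 genes most like FZD4. The members and lists were chosen with earlier results of these data known. Alternatives were the normalisation, the filter, 1 probe per gene, the fit, a replicate block, the methods' t-test, and leaving out each array. Promoters were read from RefSeq (GRCh38.p14). Gene coordinates are not given, because the files name no genome build.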

Additional observations from a re-analysis of the deposited data

Results flagged for a closer look

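Of 14 member probes examined for a single array far from the rest of its group, 1 was picked out. LRP5 probe ILMN_2075892 had 1 TKO array apart from the other 5, TKO2 replicate 3 at 5.65 on the log2 scale, with a gap of 0.824 of the whole range of the 6 TKO arrays. Chance alone picks out about 1 in 20 groups. Without that array the WT difference of this probe was 0.68 and passed (adjusted p = 0.00149), and the NTKO difference was 0.14 and did not.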

How the results depend on the processing

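The calls for WNT10A, FZD4, FZD7 probe ILMN_1804351 and LRP5 probe ILMN_1702775 held in both comparisons with TKO under each limma alternative in which the probe was tested. The methods' t-test was not followed for single probes. In NTKO minus TKO it called 4 member probes, against 6 in limma, so not every limma call held under it. The LEF1 call in NTKO held in 8 of 21 alternatives, with adjusted p from 0.0204 to 0.137. Over all member probes 1128 alternative values kept their direction and side of the threshold, 26 came to pass, 25 ceased to pass and 21 turned sign, none of them a call. Dim probes limit FZD4, LRP5 (ILMN_2075892) and FZD7 (ILMN_1804351) in TKO, with 0, 1 and 1 of 6 arrays detected. The causes of these changes were not tested.

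For all probes in NTKO minus TKO, 4292 were called, 1497 by the methods' t-test at the methods' threshold and 2526 after its Benjamini-Hochberg adjustment (run on the 3 NTKO and 6 TKO arrays of the labels, while the methods describe other replicate numbers), and 2629 to 7076 with single arrays left out (7076 without NTKO replicate 2). WT minus TKO gave 2463, and 1570 to 3908 with single arrays left out. Its member count of 8 became 5 to 9, with 5 without WT replicate 2. NTKO minus WT gave 0 member probes, and 1 with cyclic loess and 1 with median centring, and 0 to 3 with arrays left out. Its 9 pathway genes became 5 with no filter on dim probes, 1 with the arrays of the 2 lines alone and 1 to 22 with arrays left out, and its 1123 probes became 709, 270 and 370 to 5069. TKO1 minus TKO2 gave 0 to 2 member probes, 2 to 5 pathway genes and 50 to 353 probes with arrays left out (112 with all). The highest value in each of these last 6 ranges came without NTKO replicate 2.

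Between arrays of different lines with the same replicate number, 6 of 18 correlations of deviations from the line means lay above 0.1 (range -0.14 to 0.50, median 0.06). With different numbers 5 of 36 did (range -0.50 to 0.18, median -0.02). TKO1 and TKO2 correlated at 0.50 for replicate 1, 0.08 for replicate 2 and 0.48 for replicate 3. Whether arrays with the same number share a batch was not tested, and the main fit used no block. With the replicate number as a block 1 member probe, WNT10A, passed in NTKO minus WT (-0.60, adjusted p = 0.0364), 7 in NTKO minus TKO, with CTNNB1 probe ILMN_1757350 gained (-0.58, adjusted p = 0.0294), and 9 in WT minus TKO, with LRP5 probe ILMN_2075892 gained (0.53, adjusted p = 0.0412). Over all probes 1431, 4665 and 2736 passed with the block, against 1123, 4292 and 2463.

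Signs that turned belonged to differences that did not pass. In the main fit these ran from -0.24 (LRP5 probe ILMN_2075892) to 0.16 (LRP5 probe ILMN_1702775), both in TKO1 minus TKO2. LRP5 probe ILMN_2075892 in NTKO minus TKO was 0.087 on plain log2 values, 0.090 on the authors' processed values and -0.11 to 0.14 with arrays left out. CTNNB1 probe ILMN_1746396 in WT minus TKO ranged from -0.25 to 0.073. In NTKO minus WT, FZD1 probe ILMN_1696546 was 0.012 with median centring and ranged from -0.17 to 0.095, FZD7 probe ILMN_2108823 from -0.053 to 0.22, and LRP5 probe ILMN_1702775 from -0.51 to 0.0016. In TKO1 minus TKO2, WNT10A ranged from -0.087 to 0.12, FZD3 from -0.26 to 0.078, FZD7 probe ILMN_1804351 from -0.075 to 0.056, LRP5 probe ILMN_1702775 from -0.010 to 0.31 and ILMN_2075892 from -0.42 to 0.062, and FZD4 was -0.0080 with median centring.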
